A study of Mus musculus with 3 samples.

Results

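The 45 genes described here encode molecular chaperones of the cytosol, mitochondria and endoplasmic reticulum (ER), with the heat shock transcription factor gene Hsf1 beside them. They were taken by symbol from a list of chaperone families in which no measured level decides membership, and all 45 were found among the 50600 genes counted. The list was nevertheless drawn up with earlier results of these data known. The samples are 3 libraries of mouse T-helper 1 (Th1) primary cells of strain C57BL/6NJ, the CD4 T cells known for interferon gamma production. They form 1 group with no treatment, mutation or control, sex and age are not recorded, and the file headers place them at 48 h in a time course of Th1 and Th2 cells. They are numbered biological replicates 1, 2 and 3 with a sample identifier each and 1 shared donor identifier, so the spread between them may be partly technical. Levels are in TPM, counts per exonic length scaled to the same total in each library, and values are given for replicates 1, 2 and 3 in that order.

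Chaperones bind unfolded or partly folded proteins and use cycles of ATP hydrolysis, or an enclosed chamber, to let them reach their native shape. HSP70 proteins work with DNAJ partners that deliver substrates, HSP90 proteins finish the folding of kinases and receptors with the help of co-chaperones, prefoldin passes nascent actin and tubulin to the ring-shaped CCT chaperonin, and mitochondria and ER hold relatives of their own. Some of these genes are part of everyday protein synthesis and others are known for induction by heat or by unfolded proteins in the ER. Heat induction runs through heat shock elements, inverted repeats of GAA and TTC bound by the HSF1 protein. The ER response runs in part through the ER stress element, in which a CCAAT box and CCACG are held at a fixed distance.

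The letters of these elements are shown first, and no count enters them. Families known for induction by heat or by unfolded ER proteins were chosen, so the shares of members with a match are not independent of that choice. Differences between compartments were not tested. RefSeq windows from 250 bases before to 50 bases after the start were at hand for 37 of the 45 members (46 windows, GRCm38.p6, which is mm10). Hsf1, Hsp90aa1, Pfdn1, Cct4, Hsp90ab1, Hspa8, Hspa9 and Hyou1 had none. The heat shock element of 3 units, GAANNTTCNNGAA or its reverse complement TTCNNGAANNTTC, was found in 4 of 37 members (10.8%), namely Hspd1, Hspe1, Dnajb6 and Hsph1, and in 0.662% of 27025 genes. The shorter form of 2 units, GAANNTTC or TTCNNGAA, which every element of 3 units contains, stood in 13 of 37 members (35.1%), against 17% of all genes. None of the 9 ER members with a window held either form. The pieces below have the matched letters in capitals and 5 bases of flank, first for the heat shock element, whose match in Hspd1 and Hspe1 is 1 stretch of 18 bases in which the element of 3 units fits at overlapping positions.
Hspd1 and Hspe1, plus strand, chr1:55088054-55088081: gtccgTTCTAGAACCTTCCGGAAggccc
Dnajb6, plus strand, chr5:29735847-29735869: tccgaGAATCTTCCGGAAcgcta
Hspd1, the mitochondrial chaperonin of the HSP60 family, and Hspe1, its HSP10 lid, lie head to head with starts 216 bases apart, and the stretch lies between them, 72 bases before the Hspe1 start and 127 bases before that of Hspd1. In Hsph1 the match lies after the start in both of its windows.

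The ER stress element, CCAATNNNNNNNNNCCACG or its reverse complement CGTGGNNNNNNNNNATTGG, was found in 5 of 37 members (13.5%) and in 0.137% of all genes. All 5 were ER members, of the 9 that had a window. They are shown because each is written differently in the 9 free bases while the ends are fixed by the search, and each line runs along the strand of its gene.
Hspa5, plus strand, chr2:34772020-34772048: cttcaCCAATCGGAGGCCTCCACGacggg
Calr, minus strand, chr8:84847070-84847098: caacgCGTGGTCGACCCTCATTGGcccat
Hsp90b1 first match, minus strand, chr10:86705633-86705661: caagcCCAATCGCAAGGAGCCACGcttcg
Hsp90b1 second match, minus strand, chr10:86705528-86705556: gagtgCGTGGTGAGGCACGATTGGtgagt
Canx, minus strand, chr11:50325795-50325823: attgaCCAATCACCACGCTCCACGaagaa
Pdia6, plus strand, chr12:17266486-17266514: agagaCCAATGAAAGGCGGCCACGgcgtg
Hsp90b1 alone of these held 2 matches. A match is a run of letters in the reference and not a measured site.

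The libraries differed greatly in depth, with 4742025, 50627 and 3543816 counts, so that 1 count stands for 0.211, 19.8 and 0.282 CPM, counts scaled to the same total without regard to length. Replicate 2 therefore resolves only the higher members, and 42, 1 and 39 members had at least 100 counts. The T-cell markers Cd3d, Cd3e, Cd3g, Cd4 and Trac summed to 880, 622 and 331 TPM with 5 of 5 counted. The Th1 markers Tbx21, Ifng, Il12rb2, Stat4 and Cxcr3 summed to 202, 228 and 97.4 TPM. Of these, Cxcr3 had only 4, 0 and 2 counts. In replicate 2, Tbx21, Ifng, Il12rb2 and Stat4 had 6, 2, 2 and 4 counts. Cd8a, Ncr1, Klrb1c and Ms4a1 had no count in any library, nor did any of 4 myeloid markers, while Cd8b1 had 21, 1 and 13 counts and Cd79a 10, 0 and 22 counts. Genes that share exonic positions with a gene of the other strand make up 26.2% of the exonic length and took 52.7%, 57.8% and 72.2% of the counts. Counting kept the strand, with a setting that assigns a fragment to the strand of its first read, and the library kit is not given in the sources used here. If the kit's first read came from the opposite strand, counts would go to the opposite gene and a member's own value would rest on the smaller share of fragments with the wrong orientation, so every level below carries this limit. The part of strand in any result was not tested.

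Taken as a whole the chaperones were a well-counted list. Of the 45 members, 45, 41 and 44 had at least 1 count, and 32, 29 and 22 reached 100 TPM, 22 of them in all 3 libraries. Their median mean level was 150 TPM, against 26.8 TPM for a list of 80 other chaperone genes. Both lists were drawn up with earlier results of these data known, so this contrast is not independent of the choice. Together they took 1.71%, 1.39% and 0.804% of TPM (mean 1.30%, SD 0.459, n = 3). Among genes without opposite-strand exons alone, the 30 members without such exons took 3.50%, 3.29% and 3.09% of TPM (mean 3.29%, SD 0.207). The gap between replicates 1 and 3 was much smaller there, but these shares leave out the other members and are not those of all 45. In bulk RNA a smaller number of expressing cells and less RNA per cell cannot be told apart.

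Cytosolic HSP90 was the highest group in every library. Its median log2(TPM + 1) was 10.94, 10.97 and 9.99, which lay 2.51 above that of the next group when averaged over libraries. CCT followed at 8.61, 8.41 and 7.35, then the mitochondrial group at 8.54, 7.87 and 7.32, the ER group at 7.98, 7.54 and 6.85 and the HSP90 co-chaperones at 7.89, 6.90 and 6.85. These 4 groups kept this order in all 3 libraries. In mean, neighbouring groups differed by less than the SD of either over libraries (0.57 to 0.68). That SD includes shifts which the groups share in a library, so it does not measure the spread of their difference. Prefoldin at 6.70, 6.46 and 5.6, cytosolic HSP70 and HSP110 at 6.42, 5.95 and 5.01 and cytosolic DNAJ at 5.30, 5.21 and 4.54 stood lower. Some neighbours changed places with the choice of scale. With members without opposite-strand exons alone, the mitochondrial mean over libraries was 8.51 and the CCT mean 7.89. That mitochondrial value is Hspa9 alone, because Trap1, Hspd1 and Hspe1 have such exons. With the length of the longest transcript HSP70 had 6.83 and prefoldin 6.71. As shares of the members' summed TPM, HSP90 took 32.1%, 36.7% and 36.1%, the ER group 18.7%, 17.5% and 18.2%, CCT 17%, 18% and 17.6% and the mitochondrial group 11.9%, 10% and 9.95%. These shares do not depend on the scale set over all genes.

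**Figure D1:**
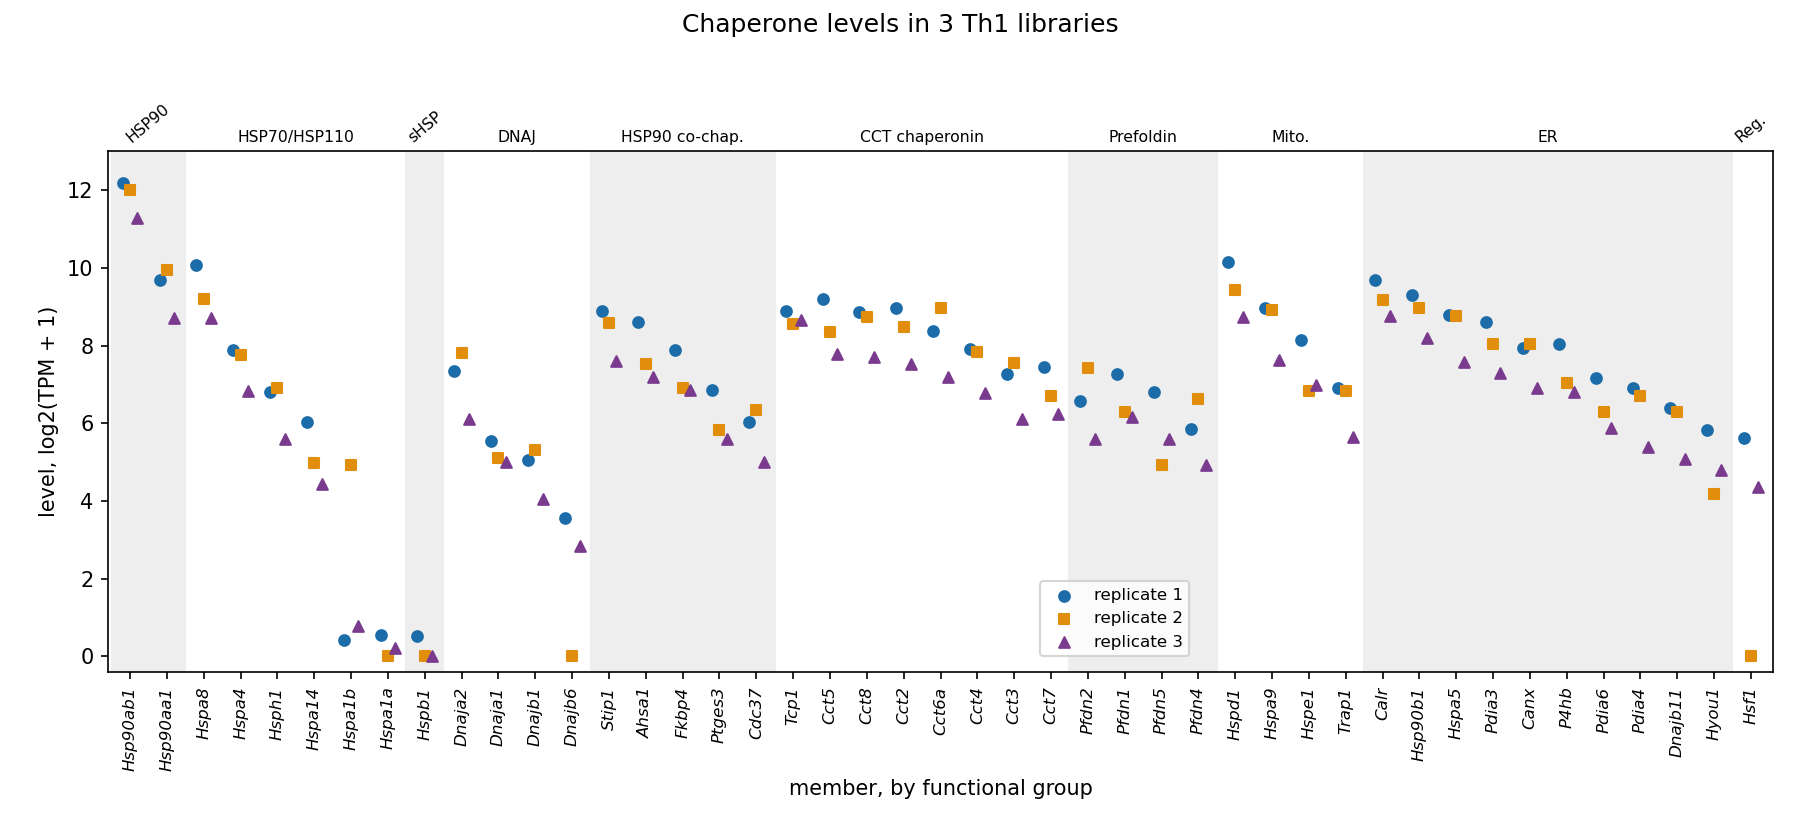
Level of each of the 45 members as log2(TPM + 1) on the vertical axis, with 1 point per library (circle, replicate 1; square, replicate 2; triangle, replicate 3) and members sorted within functional groups. Hsp90ab1 lies above all other members in each library, while Hspa1a and Hspb1 lie near 0.

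Hsp90ab1, the constitutive cytosolic HSP90, was the highest member in each library, with 4653, 4116 and 2488 TPM (mean 3753 ± 1127 TPM; SD, n = 3). It ranked 12, 17 and 50 among all genes. Its paralog Hsp90aa1, known for induction by stress, had 827, 977 and 415 TPM (740 ± 291 TPM). The 95% Poisson interval of Hsp90aa1 in replicate 2, from 93 counts, was 788 to 1197 TPM, and such intervals cover counting error only. The log2 ratio of Hsp90aa1 to Hsp90ab1 was −2.49, −2.08 and −2.58 (mean −2.38 ± 0.27), so the stress-linked paralog stood between 4.21 and 5.99 times lower. Of the words of 50 bases in Hsp90aa1 transcripts, 50.1% also occur in other genes, mostly in the pseudogene Gm12346, against 4.13% for Hsp90ab1. No option for fragments that map to several places appears in the counting command, and this sharing can lower a count.

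The HSP70 genes spanned the widest range of the groups. Hspa8, the constitutive cytosolic HSP70 (HSC70), had 1081, 586 and 418 TPM (695 ± 345 TPM). The heat-inducible pair Hspa1a and Hspa1b had 3, 0 and 1 counts and 2, 2 and 4 counts, which is 0.472, 0 and 0.171 TPM for Hspa1a and 0.333, 29.5 and 0.724 TPM for Hspa1b. The 29.5 TPM of replicate 2 rests on 2 counts, with an interval of 3.57 to 106 TPM. Summed, the inducible pair lay below Hspa8 by a log2 ratio of −10.38 (95% interval −12.01 to −9.16), −4.36 (−7.43 to −2.44) and −8.89 (−10.52 to −7.67). All intervals lay far below 0, and the inducible genes were close to the limit of detection beside 9955, 61 and 3540 counts of Hspa8. Sequence sharing touches both sides of this pair: 66.3% of words in Hspa1a and 62.3% in Hspa1b occur elsewhere, largely in each other, and 68.8% in Hspa8, largely in the pseudogene Gm15459 and the lincRNA Gm26825.

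Among nucleotide exchange relatives of the HSP110 type, Hspa4 had 237, 217 and 112 TPM and Hsph1 had 110, 119 and 47.1 TPM. The log2 ratio of Hsph1 to Hspa4 was −1.11, −0.86 and −1.25 (mean −1.07 ± 0.20), and it was −0.40 with the length of the longest transcript. Hspa14, an HSP70 relative that works at the ribosome, had 64.9, 30.5 and 20.6 TPM. The small heat shock gene Hspb1 had 1, 0 and 0 counts, and a count of 0 allows up to 120 TPM in replicate 2 and 1.48 TPM in replicate 3. Hsf1 itself had 210, 0 and 78 counts, which is 48.6, 0 and 19.6 TPM, and replicate 2 allows up to 61.4 TPM. The transcription factor gene was thus counted in both deep libraries, beside Hspa1a, Hspa1b and Hspb1 at no more than 4 counts in any library.

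The DNAJ group was modest in level. Dnaja2 led with 162, 222 and 67.7 TPM, followed by Dnaja1 with 45.6, 33.5 and 31.2 TPM and Dnajb1, a heat-inducible partner of HSP70, with 32.1, 38.7 and 15.7 TPM. Dnajb6, which holds aggregation-prone proteins in solution, had 140, 0 and 73 counts, and a count of 0 in replicate 2 allows up to 20.4 TPM. Dnajb1 to Dnaja1 gave a log2 ratio of −0.51, 0.21 and −0.99, the only one of the 10 pairs compared that changed sign between libraries. Its interval in replicate 2, −2.38 to 2.34, covers both signs.

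HSP90 co-chaperones differed widely among themselves. Stip1 (HOP), which bridges HSP70 and HSP90, had 473, 380 and 192 TPM. Ahsa1, an activator of the HSP90 ATPase, had 388, 184 and 145 TPM, and Fkbp4, a prolyl isomerase of receptor complexes, had 236, 118 and 114 TPM. Ptges3 (p23) with 114, 55.9 and 47.6 TPM and Cdc37, the kinase-specific co-chaperone, with 64.5, 80.6 and 31.3 TPM were the lowest. The log2 ratio of Stip1 to Cdc37 was 2.87, 2.24 and 2.62 (mean 2.58 ± 0.32). Counts without length gave a ratio of 0.66, since Cdc37 has 8194 bp of annotated exons and Stip1 2173 bp.

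**Figure D2:**
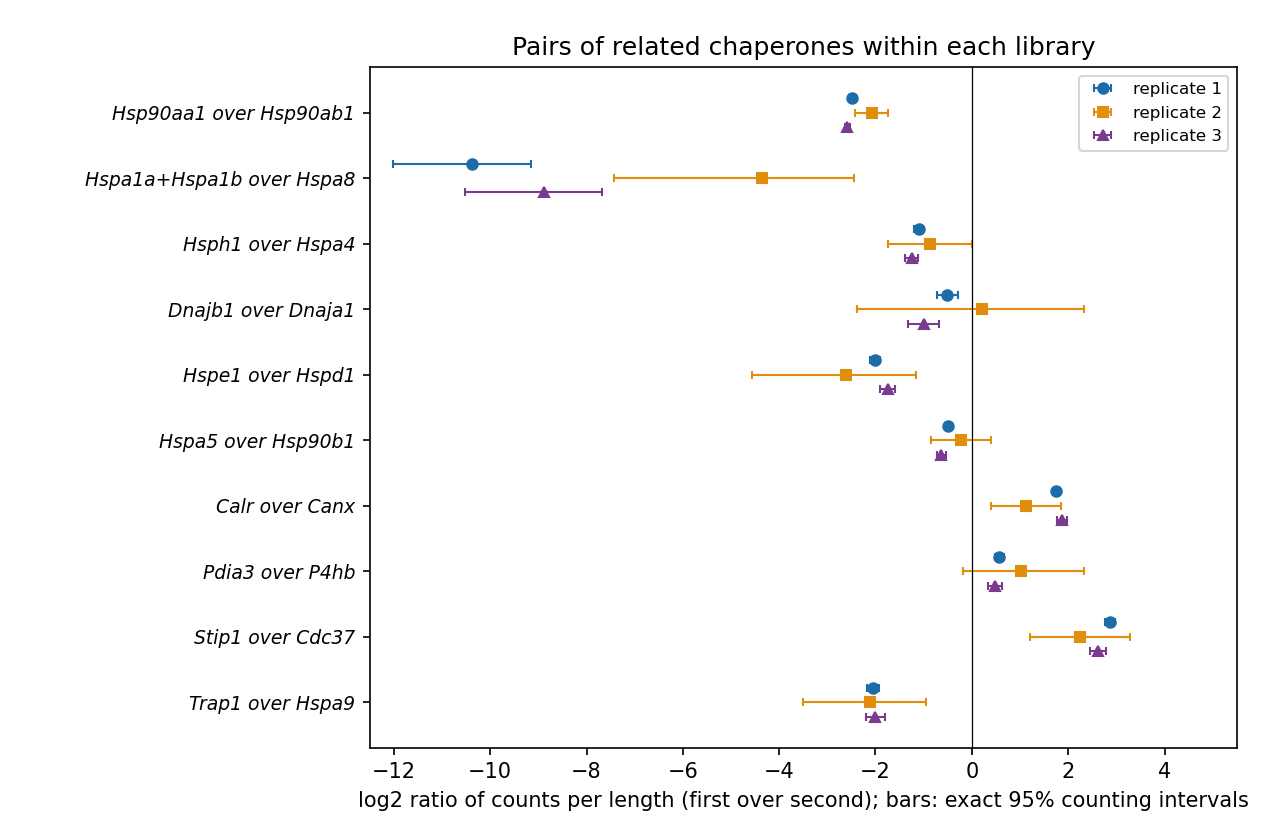
Log2 ratio of counts per length for 10 pairs of related chaperones (first gene over second) in each library, with exact 95% binomial intervals as bars. The intervals of replicate 2 are wide, and only Dnajb1 over Dnaja1 has points on both sides of 0.

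In the mitochondrial group the chaperonin genes and the HSP70 gene were high. Hspd1 had 1133, 688 and 425 TPM (749 ± 358 TPM) and Hspe1 had 280, 112 and 127 TPM. The log2 ratio of Hspe1 to Hspd1 was −2.02, −2.62 and −1.75 (mean −2.13 ± 0.45), although they share a promoter region and the letters printed above. It was −1.32 with the length of the longest transcript, which for Hspe1 is 774 bp against 1474 bp of deposited exons. In the deposited gene models, where Hspd1 starts further upstream than in the RefSeq window, their exons overlap by 112 bp on opposite strands, and 42.1% of Hspd1 words and 44.8% of Hspe1 words occur in other genes. Hspa9 (mortalin), the import motor of the matrix, had 495, 483 and 198 TPM, and Trap1, the mitochondrial HSP90, had 119, 112 and 49.5 TPM. Trap1 to Hspa9 was the steadiest of the 10 pairs by SD, with log2 ratios of −2.06, −2.10 and −2.00.

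The ER members were led by the calcium-binding lectin chaperone Calr, with 822, 573 and 433 TPM (609 ± 197 TPM). Its membrane-bound relative Canx had 244, 264 and 118 TPM, and the log2 ratio of Calr to Canx was 1.75, 1.12 and 1.87 (mean 1.58 ± 0.40). Hsp90b1 (GRP94), the ER HSP90, had 629, 502 and 293 TPM, and Hspa5 (BiP), the ER HSP70, had 444, 430 and 189 TPM. Hspa5 stood below Hsp90b1 by a log2 ratio of −0.50, −0.22 and −0.63, and in replicate 2 the interval of −0.85 to 0.39 reached across 0. In the cytosol Hspa8 also stood below Hsp90ab1 in each library. Against Hsp90aa1, however, Hspa8 was higher in replicate 1 (1081 against 827 TPM) and about equal in replicate 3 (418 against 415 TPM). In mitochondria the order was reversed, with the HSP90 gene Trap1 below the HSP70 gene Hspa9 in each library. Among protein disulfide isomerases, Pdia3 with 388, 263 and 156 TPM stood above P4hb with 261, 130 and 111 TPM, at a log2 ratio of 0.57, 1.02 and 0.49. Pdia6, Pdia4, the BiP partner Dnajb11 and the exchange factor Hyou1 ranged from 92.5 to 33.3 TPM in mean level. The 5 members with an ER stress element in their window were thus found from Calr, the highest, down to Pdia6.

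No pair could pass a test over libraries. With 3 libraries the smallest two-sided p of the exact sign-flip test is 0.25, which 9 of the 10 pairs reached (0.278 after Benjamini-Hochberg adjustment over the 10 pairs), while Dnajb1 over Dnaja1 had p = 0.50 by the same exact test. Each of the 9 kept its sign in all 3 libraries.

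The 8 CCT genes encode the subunits of a double-ring complex in which each occurs once per ring, apart from tissue-specific variants. Their levels ranged over 3.81, 4.85 and 5.92 times from lowest to highest, with a coefficient of variation of 44.8%, 42.2% and 61.7%. Cct5, Cct2, Cct8 and Cct6a were high, with 583, 501, 462 and 331 TPM in replicate 1 and 221, 184, 208 and 144 TPM in replicate 3. Cct4, Cct7 and Cct3 were low, with 238, 173 and 153 TPM in replicate 1 and 108, 75.2 and 68.6 TPM in replicate 3. The low genes have long annotations: Cct3 has 6370 bp of deposited exons but 1977 bp in its longest transcript, and Cct7 has 6778 and 2441 bp. With Tcp1 left out, the coefficient for the other 7 was 48.7%, 46.0% and 43.2% with deposited lengths, 28.2%, 29.5% and 21% with the longest transcript and 18.9%, 33.3% and 15.3% for counts without length. In the deep libraries the counts of these 7 subunits lay within 1.68 and 1.47 times of each other.

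Prefoldin behaved alike. Pfdn1, Pfdn2, Pfdn5 and Pfdn4 had 153, 95, 111 and 57.1 TPM in replicate 1 and 70.7, 47.4, 47.3 and 29.2 TPM in replicate 3. The coefficient over these 4 subunits was 38.2%, 62.5% and 34.9% with deposited lengths, and 14.5%, 69.5% and 12.6% with the longest transcript. In replicate 2 the 4 genes had 2, 8, 1 and 6 counts, and their order there is not readable. CCT was above these 4 prefoldin members in median in each library. The prefoldin subunit genes Pfdn6 and Vbp1 are among the other chaperone genes and enter neither the coefficient nor the median. Pfdn6 had 134, 2 and 59 counts and Vbp1 had 320, 2 and 142 counts. The coefficient is therefore not that of the whole complex.

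**Figure D3:**
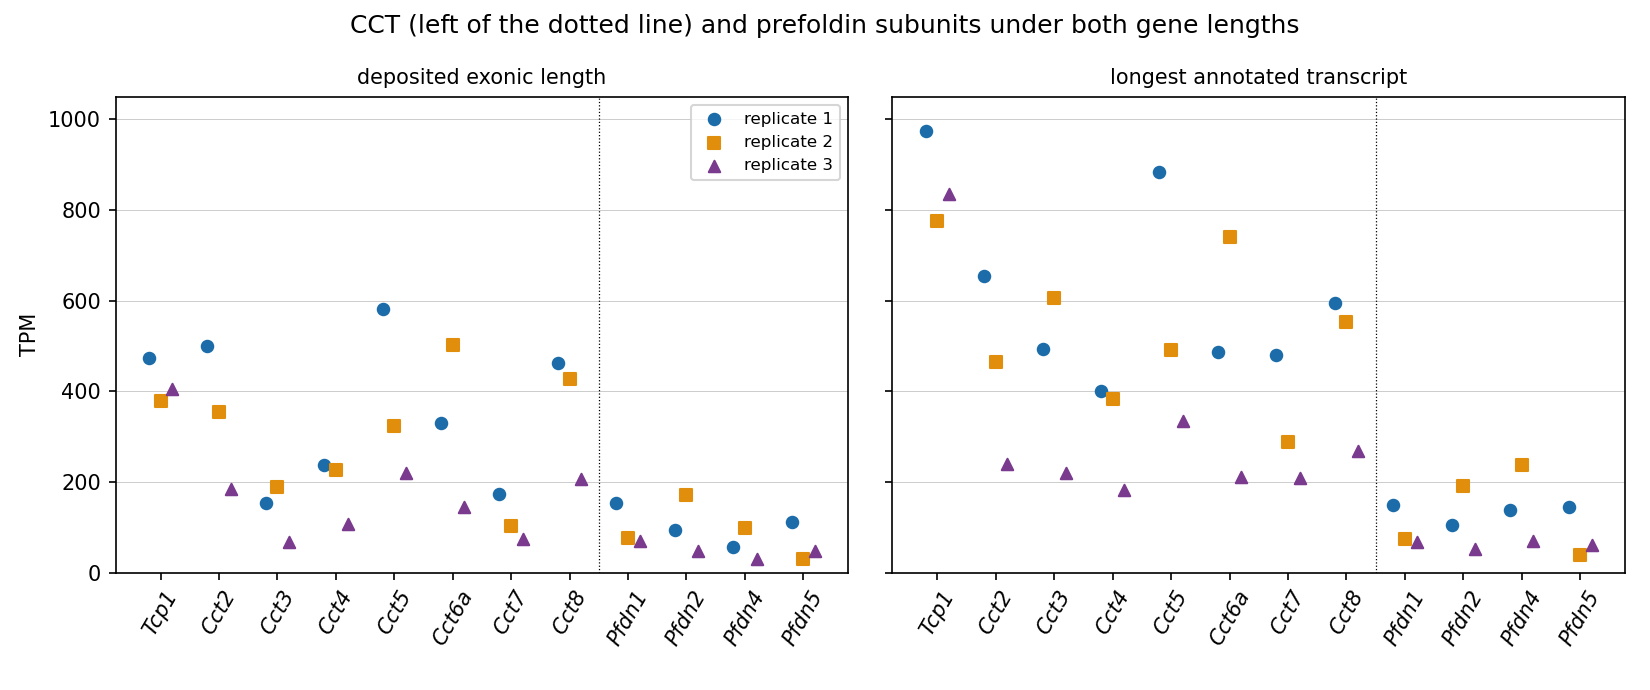
TPM of the 8 CCT and 4 prefoldin subunits in each library, with the deposited exonic length (left) and the length of the longest annotated transcript (right). Cct3 and Cct7 move up to the level of their partners on the right, and Tcp1 in replicate 3 stays far above the other subunits in both panels.

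Tcp1, which encodes the CCT alpha subunit, stood apart from its partners. It had 474, 378 and 406 TPM, the smallest relative spread of the CCT genes in TPM over all genes. On that scale each of the other 7 was lower in replicate 3 than in replicate 1. Scaled to genes without opposite-strand exons, the spread of Tcp1 was not the smallest (1528 ± 491 TPM, against 1230 ± 144 for Cct8 and 1078 ± 447 for Cct6a). There the log2 ratios of replicate 3 to replicate 1 lay between −0.05 and 0.02 for Cct3, Cct4, Cct6a, Cct7 and Cct8. Those of Cct2 and Cct5 were −0.295 and −0.249. In TPM with deposited lengths Tcp1 was the highest subunit in replicate 3 alone. In counts Tcp1 was the highest in each library, with 5103 and 46 in replicates 1 and 2 against at most 3504 and 44 for the others. Its lead was widest in replicate 3, at 4022 counts against 861 to 1263 for the others. With Tcp1 the coefficient for counts in replicate 3 was 76.2%, against 15.3% without it. Tcp1 (chromosome 17, 12915701 to 12925067, plus strand, mm10) has 14.2% of its exonic length under opposite-strand exons, namely of Acat3, an acetyl-CoA acetyltransferase gene with 10332, 146 and 12409 counts, and of Mrpl18, a mitochondrial ribosomal protein gene. Acat3 was higher in replicate 3 than in replicate 1 by 1.54 on a log2 scale set by genes without opposite-strand exons, and Tcp1 by 0.93 (95% interval of counting error 0.87 to 0.99). The part of this overlap in the Tcp1 value was not tested.

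Hsp90b1 (chromosome 10, 86690209 to 86705509, minus strand, mm10) has 10.3% of its exonic length under the pseudogene 1810014B01Rik, which had 19200, 243 and 23340 counts. Per length the pseudogene had 3381, 3783 and 4465 TPM, several times the 629, 502 and 293 TPM of Hsp90b1. Its ratio of replicate 3 to replicate 1 was 1.55 on the scale above, whereas that of Hsp90b1 was 0.05 (−0.02 to 0.12), within counting error of no difference. Cct6a with 12.5% under Psph stood at −0.05, Pfdn2 with 27.6% under Klhdc9 at 0.15 and Pfdn4 with 28.7% under Gm16796 and Cyp24a1 at 0.18, while Psph, Klhdc9 and Gm16796 stood at 1.71, 1.57 and 1.45. Hspa1a with 19.0% under Gm20481 had too few counts for a ratio. In all, 15 of the 45 members have exons under those of a gene on the other strand, and the 6 named here have 10% or more of their length there. Exons of a same-strand gene cover part of 9 members, mostly through small RNA genes.

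Most members differed between the 3 libraries by more than counting error. A chi-square test of each gene's counts against scaled library totals, adjusted over all genes at 0.05, called 37 of the 40 members that passed the filter on low counts, and 63.2% of all 7406 genes tested. Of these 37, 35 were lower in replicate 3 than in replicate 1 (36.3% of all genes), and Tcp1 and Dnaja1 were higher (26.9% of all genes), at 0.53 and 0.21 on the log2 scale, of which Dnaja1 turned to −0.25 with unscaled library totals. Pfdn2, Pfdn4 and Dnajb1 were not called, and Hspa1a, Hspa1b, Hspb1, Dnajb6 and Hsf1 were below the filter. The median log2 ratio of replicate 3 to replicate 1 was −0.45 for the members, against −0.26 for all kept genes, −0.39 for kept genes without opposite-strand exons and 0.76 for kept genes with them. The members thus lay near the median of the genes without such exons. The call counts rest on the deep libraries: without replicate 2, 26 of 42 members were called (37.9% of genes), without replicate 1 only 3 of 40 (9.47%) and without replicate 3 only 2 of 40 (3.65%).

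Set against genes without opposite-strand exons alone, the picture was different. There 10 of 27 members were called, against 13.3% of 4136 genes, with 7 lower in replicate 3 (3.99% of genes) and 3 higher (9.28% of genes). Hsp90ab1 (log2 0.25, adjusted p = 4.16e-64 by the chi-square test), Calr (0.23) and Hsp90aa1 (0.16) were higher in replicate 3 on this scale, each of which is lower with all genes as the base (−0.15, −0.17 and −0.24). Hspa14 (−0.50), Pdia4 (−0.38), Cct2 (−0.30), Ahsa1 (−0.27), Cct5 (−0.25), Hspa8 (−0.22) and Hspa9 (−0.17) were lower on both. A further 8 members changed sign between the scales without a call on the second. Without replicate 2, 11 of 28 members were called (11.6% of genes), and the 10 above were among them, with Stip1 added. Summed over replicates 1 and 3, the 28 members without such exons that reached 100 counts had a median of 2305 counts, against 316 for all 4667 such genes. The sizes were ordinary: the ratios of these 28 members had quartiles of −0.17 and 0.08, and those of the 4667 genes −0.18 and 0.18.

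**Figure D4:**
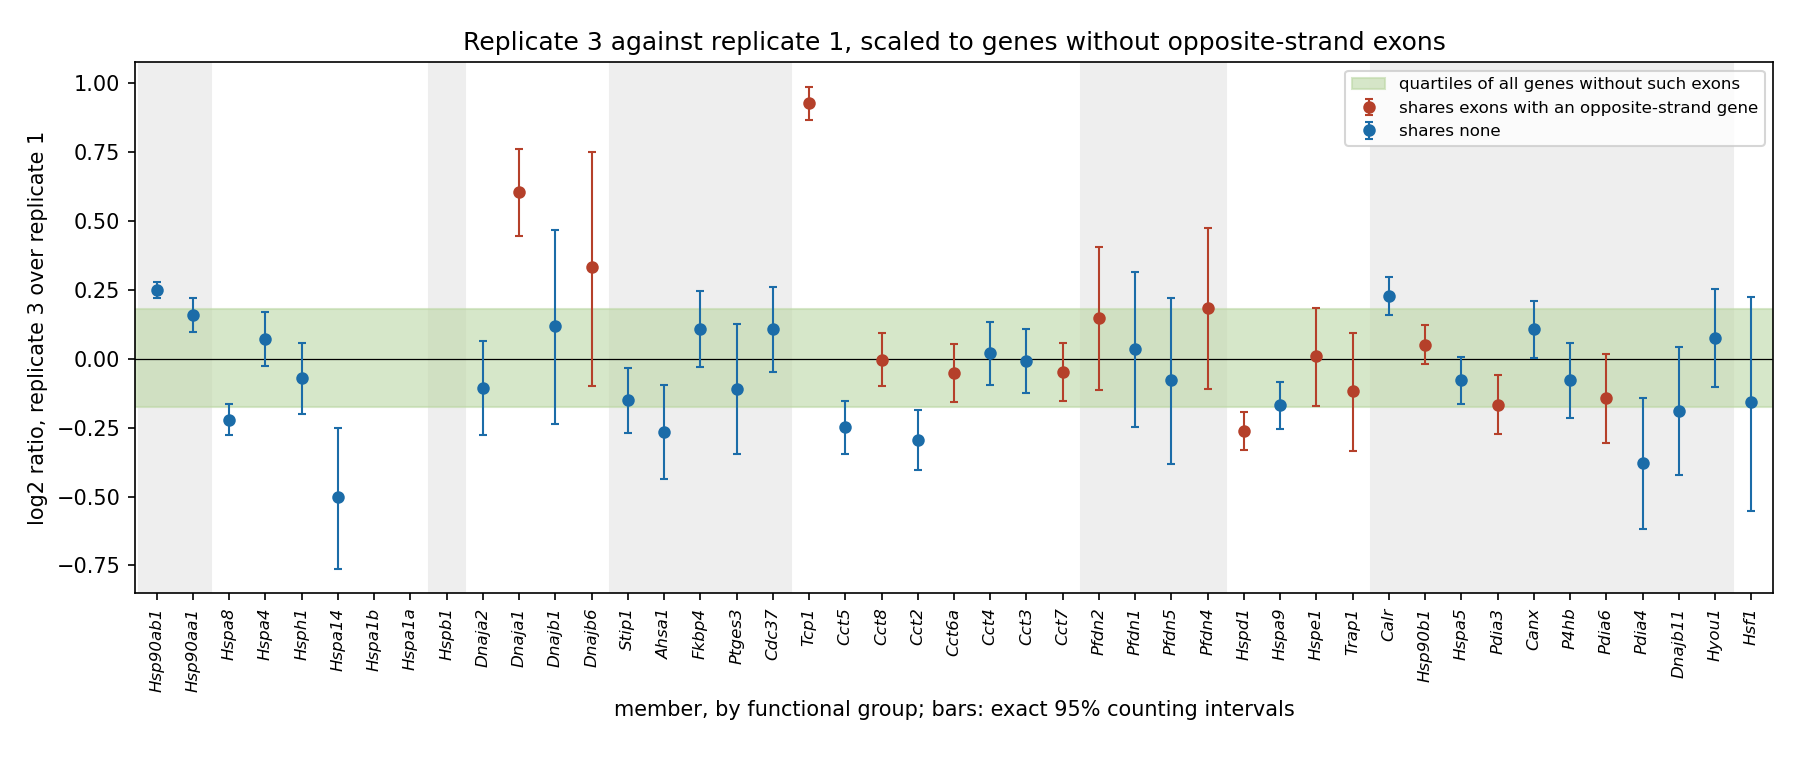
Log2 ratio of replicate 3 over replicate 1 for the 42 members with enough counts, on the scale of genes without opposite-strand exons, with exact 95% counting intervals as bars. Red points share exons with an opposite-strand gene, blue points do not, and the green band spans the quartiles of all genes without such exons; Tcp1 and Dnaja1 lie highest.

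The 14 overlapping members with enough counts had a median ratio of 0.00 on that scale, from −0.26 in Hspd1 to 0.93 in Tcp1, against 1.14 for all 3626 overlapping genes. Dnaja1, with 9.93% of its length under opposite-strand exons, chiefly of Smu1, stood at 0.60, while Smu1 stood at −0.41. Most overlapping chaperones therefore lay with the members without overlap, and Tcp1 and Dnaja1 lay apart from them. The biological coefficient of variation over the 3 libraries, from edgeR, was 0.341 for all kept genes and 0.224 for the 40 members. With library sizes from genes without opposite-strand exons it was 0.147 for the 40 members, beside 0.166 for those 4136 genes. These sets differ in kind, since only 27 of the 40 members are without such exons. The coefficient of the 27 at those sizes was not computed.

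Of the 80 other chaperone genes, 57 passed the filter and 36 of them were called, 26 lower and 10 higher in replicate 3, beside 63.2% of all genes called. Among genes without opposite-strand exons 6 of 42 were called, 3 in each direction, beside 13.3% of all such genes. Nudc, an HSP90-linked chaperone, was the highest by mean level, with 605, 203 and 328 TPM. Stub1 (CHIP), the ubiquitin ligase that binds HSP70 and HSP90, had 295, 272 and 355 TPM, and Btf3, of the nascent-chain complex, had 367, 309 and 165 TPM. All 3 were called. Stub1, with 40.9% of its length under opposite-strand exons, was higher in replicate 3 by 1.02, while Btf3 stood at −0.40 and Nudc at −0.13, which turned to 0.27 among genes without such exons.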

How the data were processed

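Per the file headers, the authors counted fragments with both ends mapped over exons per gene with featureCounts 1.4.6-p4, strand setting 1, on GENCODE M13 (mm10) and alignments named star2; the deposited counts were used unchanged. The aligner's version, the kit and the treatment of multi-mapped fragments are not given in these sources. TPM used the deposited exonic length, CPM no length. The members, lists, pairs and named genes (all members, their opposite-strand partners and the 3 highest other chaperone genes) were chosen with earlier results of these data known. Pfdn6 and Vbp1 were named in addition. With 1 group no quasi-likelihood test between groups was possible. Each gene kept by filterByExpr was tested by chi-square (2 degrees of freedom) against TMM-scaled totals with edgeR 4.0.16 in R 4.3.3 and Benjamini-Hochberg adjustment at 0.05; this compares libraries, not conditions. Size factors and dispersions from DESeq2 1.42.0 served as alternatives. The script was tested on simulated data. Intervals are exact at 95%, and a count of 0 was given a limit of 3 counts; precision follows the depth per library. On the scale of genes without opposite-strand exons, ratios of members and partners between replicates 1 and 3 needed 20 counts in each. The distributions over all genes beside them needed 100 counts in the sum of both. Exon overlaps came from the files' coordinates, shared words of 50 bases from GENCODE M21 transcripts, and promoter letters from RefSeq windows (GRCm38.p6). Alternatives were other scalings, filters, lengths, base gene sets and each replicate left out; those with the longest transcript, and without replicate 2 among genes without opposite-strand exons, were chosen after seeing the data.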

Additional observations from a re-analysis of the deposited data

How the results depend on the processing

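Of the alternative values for the main results, 21 moved and 86 did not by the rules used, which for a pair ask only for its sign and its side of the threshold. No pair changed the sign of its mean, but counts without length took Stip1 over Cdc37 to 0.66 and Dnajb1 over Dnaja1 to −1.86. The share of all 45 members, 1.30% of TPM, was 2.12% of counts. Among genes without opposite-strand exons, the 30 members without such exons took 3.29% of TPM. The lead of HSP90 over the next group, 2.51, was 2.70 as a mean over members and 2.24 with the longest transcript. With members without opposite-strand exons it was 2.13, where the next group, the mitochondrial, is Hspa9 alone. Members called ranged from 2 of 40 to 26 of 42 with 1 replicate left out, beside 3.65% to 37.9% of all genes. They were 10 of 27 among genes without opposite-strand exons and 11 of 28 there without replicate 2, beside 13.3% and 11.6%. All genes called ranged from 271 to 4167 and were 549 and 770 in these 2 restricted sets. Members called and lower in replicate 3 were 21 of 42 at 20 or more counts, beside 1061 of 11720 genes. Without replicate 2 they were 23 of 42, beside 1160 of 11003 genes. In those restricted sets they were 7 of 27 and 8 of 28, beside 165 of 4136 and 180 of 6641 genes. The coefficient of variation was 0.181 by DESeq2, 0.166 among genes without opposite-strand exons and 0.240 to 0.365 with 1 replicate left out. Members with overlap were 6 at 10% of length. The median log2 ratio over all genes was −0.26 with TMM, −0.15 with DESeq2 size factors, −0.71 with library totals and 0.00 among genes without opposite-strand exons, and directions should be read against it. In that last set, with 3 libraries and then without replicate 2, these members turned to higher in replicate 3: Hsp90ab1 0.25 and 0.23, Calr 0.23 and 0.21, Hsp90aa1 0.16 and 0.14, Dnajb1 0.12 and 0.10, Fkbp4 0.11 and 0.089, Cdc37 0.11 and 0.088, Canx 0.11 and 0.089, Hyou1 0.076 and 0.058, Hspa4 0.071 and 0.053, Pfdn1 0.036 and 0.018, Cct4 0.020 and 0.0020. With all genes at 20 or more counts, and then without replicate 2, Hsp90ab1 turned to 0.087 and 0.082, Calr to 0.066 and 0.061 and Pfdn4 to 0.023 and 0.018. Dnaja1 turned to −0.25 with library totals. The cause was not tested. No paired analysis was possible because there is 1 group. Depth limits replicate 2, where 1 count is 19.8 CPM.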
